A study of Homo sapiens with 9 samples.

Results

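The DNAJ genes encode the J-domain proteins, also called HSP40 proteins, which work as cochaperones of the HSP70 chaperones. Members were all rows of the count table whose symbol begins with DNAJA, DNAJB or DNAJC and a digit, without pseudogene symbols. There were 45 such genes of 19969 in the table: 4 of class A, 12 of class B and 29 of class C. The class C rows include DNAJC25-GNG10, a read-through gene that spans DNAJC25 and its neighbour and held 0 counts in every library.

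A J-domain protein binds a client protein or sits at a fixed site in the cell, and through its J domain makes a partner HSP70 hydrolyse ATP and clamp onto the client. Nucleotide exchange factors then release the client. Class A proteins carry a J domain, a glycine- and phenylalanine-rich stretch and a zinc-finger region. Class B proteins lack the zinc finger, and class C proteins share only the J domain and are otherwise unlike each other. Some members, DNAJB1 above all, are induced by the heat shock factor HSF1, while others serve the endoplasmic reticulum, mitochondria, ribosomes or vesicles.

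The counts came from 9 ribosomal-RNA-depleted libraries of HEK293T cells, a human embryonic kidney line that carries the SV40 large T antigen. Of these, 2 each were labelled FHY1-M3_ACTB_sgRNA, FHY1-M3_con_sgRNA and FHY1-M3_non-target_sgRNA, and 3 were labelled input. The labels tie the FHY1-M3 construct to the sgRNA libraries only, and give no light treatment, dose or time. The molecule is given as total RNA for every library, but the protocol speaks of input, supernatant and IP libraries without saying which is which, and nothing says whether the inputs came from cells with the construct. The con columns carry the name con_ACTB_sgRNA in the count table and con_sgRNA in the titles. RNA fraction, construct and culture therefore cannot be told apart in any comparison of the FHY1-M3 libraries with input. Separate cultures are not stated for the replicates, and the p-values thus reflect library-to-library spread that may be technical.

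Library totals ran from 2900021 to 3802681 counts in the 6 FHY1-M3 libraries and from 350413 to 643954 in the 3 inputs. Levels below are CPM (count rates per library after edgeR scaling of all 9 libraries, used also where guides are compared). All 8 genes listed as expressed in HEK293 cells, among them VIM, NEFM and STMN1, were measured. In the edgeR quasi-likelihood test (adjusted p below 0.05), 0 of them were called between FHY1-M3 and input libraries, against 20% of all genes. At that share few calls would arise among 8 genes. The SE of the log2 fold change was 0.74 for PAX2, 0.51 for KRT8 and 0.41 for ENO2, so a missing call says little for these. Of 12 genes that define blood, liver, fibroblast, muscle or skin cells, COL1A1 alone passed the low-count filter, at 29.9 ± 12.9 CPM in the FHY1-M3 libraries (SD, n = 6) and 29.0 ± 30.0 CPM in the inputs (SD, n = 3), while PTPRC, CD3E, COL1A2 and KRT14 held 0 counts in every library.

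Heat shock factors bind alternating units of GAA and its reverse complement TTC, with 2 free bases between units. The 2-unit form (GAANNTTC or TTCNNGAA) and the 3-unit form (the same with a further alternating unit after 2 more free bases) were searched on both strands in the RefSeq promoter windows of GRCh38.p14, which run from 250 bases before to 50 bases after a gene's start. Of the 45 members, 41 had a window, and 2 of these held the 3-unit form, against 0.487% of 27305 windows of all genes. Both stretches that hold it, in DNAJA1 and DNAJB6, are shown. These genes were called higher in the FHY1-M3 libraries, but only 2 of the 8 windows of members called higher held the form. It was in 0 of the 28 windows of the other tested members. Any link between the form and the calls was not tested. The fixed bases of the 3 units are in capitals.
DNAJA1, chr9:33025213-33025292, plus strand: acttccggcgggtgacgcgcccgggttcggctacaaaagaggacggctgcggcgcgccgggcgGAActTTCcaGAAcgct
DNAJB6, chr7:157336824-157336923, plus strand: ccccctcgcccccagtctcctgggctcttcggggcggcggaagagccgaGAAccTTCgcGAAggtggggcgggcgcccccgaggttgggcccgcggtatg
With the start base counted as 0, the match lay at bases 3 to 15 in DNAJA1 and at bases -131 to -119 in DNAJB6. The 2-unit form, which the 3-unit form contains, was in 4 of the 41 member windows (9.76%) and in 13.7% of all windows. Besides DNAJA1 and DNAJB6 it was in DNAJB7 and DNAJC15, which were too low to test. The start base of the DNAJB1 window lay 31120 bases inside the annotated span of that gene. Neither the beginning of that span nor any other start within it was searched, so the promoter that DNAJB1 uses may have been missed. This window, which is among the 8 of members called higher, held neither form, which says only that these letters are absent from that window. Among the HSP70 and HSP90 partner genes described further on, 2 of the 17 windows of genes higher in the FHY1-M3 libraries held the 3-unit form, those of HSPA6 and HSPA8, and 0 of the 12 windows of the other tested genes did. A match is a description of letters, and no binding was measured.

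The FHY1-M3 libraries were compared with input, with 39 of the 45 members passing the low-count filter. The inducible cochaperone gene DNAJB1 stood 6.77-fold higher, DNAJC11 2.88-fold, DNAJA1 2.61-fold, DNAJB2 2.39-fold and DNAJA3 2.05-fold. DNAJC5, DNAJB6 and DNAJC7 were higher by less than 2-fold, and DNAJC21, a ribosome assembly gene, was lower. In all, 8 members (20.5% of those tested) were called higher and 1 lower by the edgeR quasi-likelihood test at an adjusted p below 0.05, and the other 30 were not called. Across all 13411 genes tested, 11.4% were called higher and 8.6% lower. At an unadjusted p under 0.05 there were 15 members, against 31.9% of all genes. The FHY1-M3 libraries all lay above the inputs for 8 members and all below them for 0, which was so for 14.9% and 8.51% of all genes. The median log2 fold change was 0.30 over the tested members and 0.04 over all genes. In bulk RNA, fewer cells with a transcript and less of it per cell cannot be told apart.

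**Figure D1:**
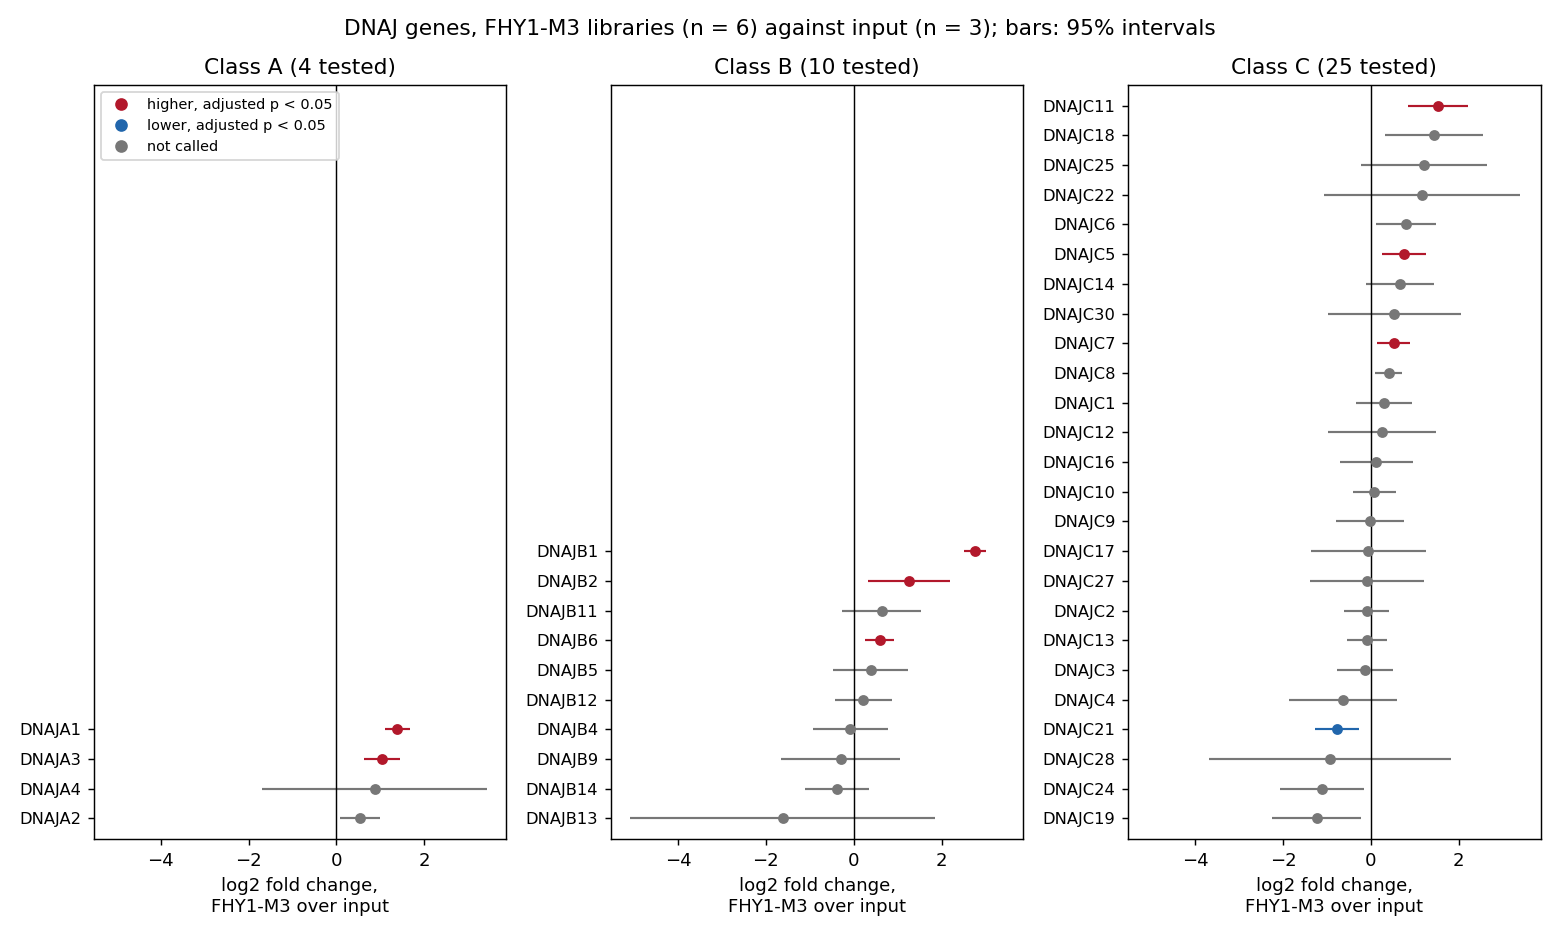
Log2 fold change of each tested member, FHY1-M3 libraries (n = 6) over input (n = 3), with 95% intervals, in 1 panel per class; red points were called higher, blue lower and grey not called. All 4 class A estimates lie above 0, DNAJB1 stands at 2.76 with a narrow interval, and most class C intervals cross 0.

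Calls are given by class as counts without a test, because genes are not replicates. In class A 2 of 4 tested members were higher, in class B 3 of 10 and in class C 3 of 25 (12%, against 11.4% of all genes), with 1 class C member lower. The class C count was 1 without con replicate 2 or with median-ratio factors and 5 with library-size scaling, and without input replicate 2 class B had 1 and class C 4 called higher. The median log2 fold change was 0.95 in class A, 0.30 in class B and 0.13 in class C. Under median-ratio scaling these medians were 0.88, 0.23 and 0.05, and under library-size scaling 1.01, 0.36 and 0.18. Without input replicate 3 they were 0.69, 0.63 and 0.10, so that the class B median lay close to that of class A. Class C alone changed sign in any alternative run, at -0.11 over the 22 class C genes that passed the filter after random thinning of each FHY1-M3 library to 462026 counts, the mean total of the inputs.

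As a share of all gene counts, DNAJ genes took 0.372% ± 0.0123 in the FHY1-M3 libraries (SD, n = 6) and 0.207% ± 0.00236 in the inputs (SD, n = 3). Class A took 0.0666% to 0.0818% of counts in the FHY1-M3 libraries, against 0.0291% to 0.0360% in the inputs. Class B took 0.144% to 0.155% in the FHY1-M3 libraries, against 0.0481% to 0.0623% in the inputs. The 2 ranges were apart in both classes. DNAJB1 alone made up 59.3% to 65.4% of class B counts in the FHY1-M3 libraries and 23.2% to 25.8% in the inputs. Without it class B took 0.0506% to 0.0616% in the FHY1-M3 libraries and 0.0370% to 0.0465% in the inputs. Class C took 0.136% to 0.155% in the FHY1-M3 libraries, against 0.110% to 0.127% in the inputs. The ranges of class C were apart by a narrow margin only. Class C therefore made up 39.4% ± 1.25 of all DNAJ counts in the FHY1-M3 libraries (SD, n = 6) and 57.9% ± 3.70 in the inputs (SD, n = 3). These shares are of deposited counts without scaling and were not tested.

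**Figure D2:**
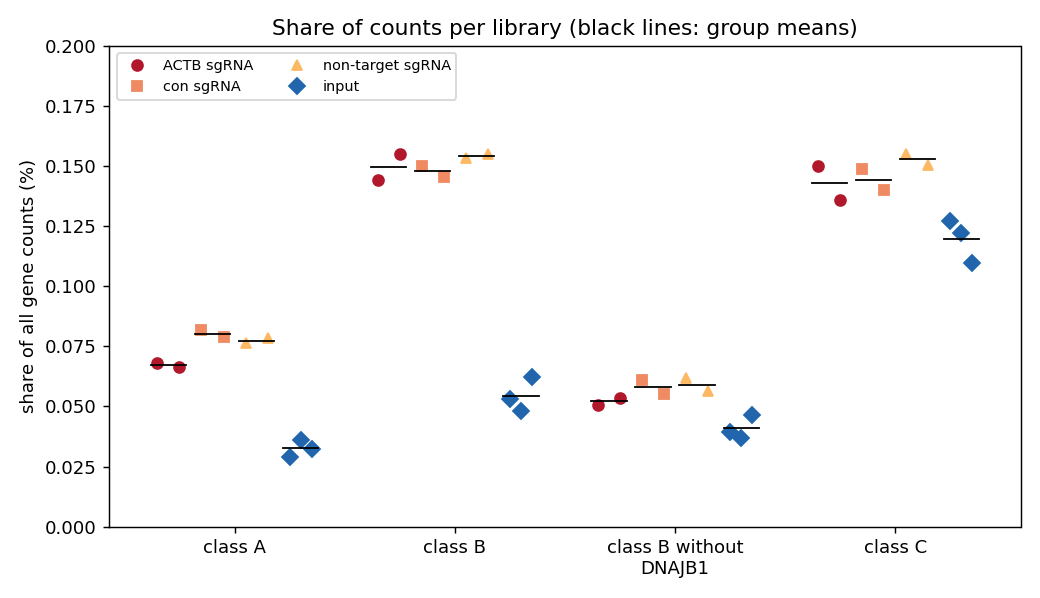
Share of all gene counts (%) taken by class A, class B, class B without DNAJB1 and class C in each library, with black lines at group means. Class B lies between 0.144% and 0.155% in the 6 FHY1-M3 libraries and between 0.0481% and 0.0623% in the inputs, and the gap is much smaller once DNAJB1 is left out.

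Among the members that fold cytosolic proteins with HSP70, DNAJB1 and DNAJA1 had the largest called fold changes. DNAJB1 (chromosome 19, 14514769 to 14560391, GRCh38.p14), which drives HSP70 in refolding and in taking aggregates apart, had 881 to 1004 CPM in the FHY1-M3 libraries, with a median of 918, and 139, 117 and 162 CPM in the inputs. Every FHY1-M3 library was at more than 5 times the level of the highest input. Its log2 fold change was 2.76 (SE 0.12, 95% interval 2.51 to 3.01, adjusted p = 2.3e-20). Its level varied least among the 35 members with a mean of at least 10 CPM, with a coefficient of variation of 5.32% over the 6 FHY1-M3 libraries against a median of 18.1%. DNAJB1 also held the most counts of any member in these libraries (19844), and low counts add noise. The part of depth in this was not tested. Its annotated span overlaps TECR, a fatty acid enzyme gene, which was lower (log2 -0.81, SE 0.25, adjusted p = 0.0181). The strand setting of the counting is not given in the sources used here, so reads in the overlap cannot be told apart.

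DNAJA1 (chromosome 9, 33025273 to 33039907), a general class A partner of cytosolic HSP70, had 361 to 495 CPM in the FHY1-M3 libraries, with a median of 459, and 127, 182 and 188 CPM in the inputs. The groups did not overlap, and the log2 fold change was 1.38 (SE 0.14, adjusted p = 1.27e-09). RefSeq lists 6 DNAJA1 pseudogenes, with which reads may be shared. DNAJA2, its close relative, had 100 to 140 CPM in the FHY1-M3 libraries, with a median of 120, and 92.5, 81.3 and 70.6 CPM in the inputs. The groups were apart, yet DNAJA2 missed the threshold (log2 0.54, SE 0.22, adjusted p = 0.0828). DNAJA4, a class A gene known to respond to heat, held only 4 counts over the 3 inputs, and its interval of -1.69 to 3.43 allows a change in either direction.

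Among the other class B folding genes, DNAJB2, a neuron-rich cochaperone that hands clients to the proteasome, had 33.7 to 44.7 CPM in the FHY1-M3 libraries, with a median of 36.6, and 5.78, 19.5 and 20.9 CPM in the inputs. The groups did not overlap, but the inputs held only 22 counts in all. The log2 fold change was 1.26 (SE 0.46, adjusted p = 0.0461), and the call was lost without any single library other than input replicate 3 (adjusted p = 0.0612 and 0.0994 without ACTB sgRNA replicates 1 and 2, 0.112 and 0.0744 without con, 0.0787 and 0.0606 without non-target, 0.151 and 0.063 without input replicates 1 and 2). Median-ratio factors (0.0634), the 10 CPM filter (0.0539), halved counts (0.0696) and thinning (0.521) also lost it, making 12 of 18 alternatives. DNAJB6, which keeps polyglutamine and amyloid proteins from aggregating, had 250 to 328 CPM in the FHY1-M3 libraries, with a median of 295, and 272, 143 and 178 CPM in the inputs. Input replicate 1 lay inside the FHY1-M3 range. DNAJB6 had a log2 fold change of 0.60 (SE 0.16, adjusted p = 0.00798), and it was 0.38 (adjusted p = 0.116) without input replicate 2 and 0.88 without input replicate 1. RefSeq lists 8 DNAJB6 pseudogenes.

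DNAJB4 and DNAJB5, relatives of DNAJB1, did not follow it. DNAJB4 had 25.3 to 36.2 CPM in the FHY1-M3 libraries, with a median of 26.4, and 17.3, 42.3 and 26.1 CPM in the inputs. The ranges overlapped (log2 -0.07, SE 0.42, interval -0.93 to 0.78, adjusted p = 0.93), so a difference of 2-fold or more lies outside the interval. DNAJB5 had a log2 fold change of 0.38 (SE 0.42, interval -0.47 to 1.24, adjusted p = 0.571), which allows a rise of up to 2.36-fold. DNAJC7, a class C protein with tetratricopeptide repeats that binds both HSP70 and HSP90, had 135 to 188 CPM in the FHY1-M3 libraries, with a median of 184, and 133, 120 and 110 CPM in the inputs. The lowest FHY1-M3 library was hardly above the highest input. The log2 fold change was 0.52 (SE 0.19, adjusted p = 0.0436), and this call was lost without ACTB sgRNA replicate 1 (adjusted p = 0.138), con replicate 1 (0.123) or 2 (0.073), non-target replicate 1 (0.0787) or 2 (0.0678), and input replicate 2 (0.101) or 3 (0.125). It was lost in 13 of 18 alternatives in all, among them DESeq2 (0.0768), median-ratio factors (0.0928), the 10 CPM filter (0.0826) and halved counts (0.0742). DNAJC7 overlaps CNP, a myelin enzyme gene, which was higher by a log2 of 1.13 (SE 0.27, adjusted p = 0.00208). Of the 9 genes listed for cytosolic folding, 5 were higher and 0 lower, with a median log2 fold change of 0.60. Across all genes tested 11.4% were higher and 8.6% lower, with a median of 0.04. The 5 include DNAJB2 and DNAJC7, whose calls were lost in 12 and 13 of 18 alternatives.

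Of the 6 members listed for mitochondria 5 were tested. Among them 2 were called higher and 0 lower, against 11.4% and 8.6% of all genes. DNAJA3 (chromosome 16, 4425868 to 4456775), the class A cochaperone of mitochondrial HSP70, had 146 to 208 CPM in the FHY1-M3 libraries, with a median of 176, and 75.2, 107 and 73.2 CPM in the inputs. The groups did not overlap (log2 1.03, SE 0.20, adjusted p = 0.000287). DNAJC11 (chromosome 1, 6634170 to 6701816), which helps to hold the outer and inner mitochondrial membranes together, had 63.9 to 106 CPM in the FHY1-M3 libraries, with a median of 81.0, and 11.6, 42.3 and 26.1 CPM in the inputs. These groups were also apart (log2 1.53, SE 0.34, adjusted p = 0.00125), although the inputs held 40 counts in all and the log2 fold change ran from 1.22 to 2.10 as single libraries were left out. The span of DNAJC11 overlaps THAP3, whose log2 fold change was 1.51 (SE 0.59, adjusted p = 0.0665).

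DNAJC19, a subunit of the motor that pulls proteins into mitochondria, had the lowest estimate of the mitochondrial list. It stood at 10.4 to 18.2 CPM in the FHY1-M3 libraries, with a median of 14.6, and at 40.5, 48.8 and 10.5 CPM in the inputs. Input replicates 1 and 2 were above every FHY1-M3 library and input replicate 3 was not, and the test did not pass (log2 -1.23, SE 0.50, adjusted p = 0.0773). RefSeq lists 9 DNAJC19 pseudogenes. DNAJC28 and DNAJC30 were too low for a statement, with 6 and 10 counts over the inputs, and DNAJC15, the complex I regulator, had 0 to 2.15 CPM across the FHY1-M3 libraries and did not pass the low-count filter. HSPA9, the HSP70 of mitochondria, was higher by a log2 of 0.52 (SE 0.11, adjusted p = 0.000559), and its exchange factor GRPEL1 by 1.04 (SE 0.29, adjusted p = 0.0088). GRPEL2, the other mitochondrial exchange factor, stood at 0.05 (SE 0.27, adjusted p = 0.921), and TRAP1, the HSP90 of mitochondria, at 0.40 (SE 0.17, adjusted p = 0.105), and neither was called.

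None of the 7 members listed for the endoplasmic reticulum was called, in either direction, and 0 of them had an unadjusted p under 0.05. Across all genes tested these shares were 20% and 31.9%, so few calls would arise among 7 genes. DNAJB9, DNAJB11, DNAJB14 and DNAJC1 held only 22, 30, 60 and 64 counts over the inputs, and a missing call says little for them. The median log2 fold change of the 7 members was 0.08, with a range of -0.38 to 0.64. DNAJC10, a reductase that opens disulphide bonds, had 87.6 to 126 CPM in the FHY1-M3 libraries, with a median of 104, and 63.6, 97.5 and 141 CPM in the inputs. The inputs lay on both sides of the FHY1-M3 range (log2 0.08, interval -0.40 to 0.56). DNAJB12, a membrane-bound quality control factor, had 61.8 to 104 CPM in the FHY1-M3 libraries, with a median of 74.5, and 17.3, 68.3 and 110 CPM in the inputs, so the inputs spread more widely than the FHY1-M3 libraries. DNAJB9 and DNAJB11, which are induced when unfolded proteins gather in this compartment, had log2 fold changes of -0.30 (SE 0.67) and 0.64 (SE 0.44), and DNAJC3, another such gene, of -0.14 (SE 0.31). HSPA5, the HSP70 that these proteins serve, differed by 0.02 (SE 0.11, interval -0.20 to 0.25, adjusted p = 0.918). HYOU1, an exchange factor of HSPA5, was higher by 0.65 (SE 0.16, adjusted p = 0.00421). SIL1, another exchange factor of HSPA5, stood at 0.11 (SE 0.51, adjusted p = 0.912) and was not called. The ER stress element, CCAAT and CCACG with 9 free bases between them, was in 0 of the 41 member promoter windows and in 0.0806% of all windows. At so low a share, 0 of 41 says nothing about the members. Among HSP70 and HSP90 partner genes, 2 of the 12 windows of tested genes not called higher held it. It was in 0 of the 17 windows of those called higher.

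Of the 4 members that work on ribosomes or splicing, 1 was lower and 0 were higher, against 8.6% and 11.4% of all genes. DNAJC21 (chromosome 5, 34929559 to 34958964), which acts in the maturation of the large ribosomal subunit, had 41.1 to 92.5 CPM in the FHY1-M3 libraries, with a median of 69.6, and 147, 124 and 73.2 CPM in the inputs. Input replicate 3 lay inside the FHY1-M3 range. DNAJC21 had a log2 fold change of -0.77 (SE 0.25, adjusted p = 0.0247), and the call was lost without ACTB sgRNA replicate 1 (adjusted p = 0.0614), con replicate 1 (0.0805), non-target replicate 1 (0.0718) or input replicate 1 (0.136) or 2 (0.101). DNAJC2, which sits on ribosomes, had 71.7 to 93.6 CPM in the FHY1-M3 libraries, with a median of 79.0, and 116, 76.4 and 68.0 CPM in the inputs (log2 -0.09, interval -0.60 to 0.42). DNAJC8, a spliceosome-associated member, had 211 to 269 CPM in the FHY1-M3 libraries, with a median of 253, and 228, 169 and 173 CPM in the inputs. It missed the threshold at a log2 of 0.40 (SE 0.15, adjusted p = 0.0586) and passed under library-size scaling (adjusted p = 0.0315), without a low-count filter (0.0489) and without input replicate 1 (0.014).

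Among the vesicle members, DNAJC5, the cysteine string protein of secretory vesicles, had 104 to 133 CPM in the FHY1-M3 libraries, with a median of 118, and 34.7, 87.8 and 78.4 CPM in the inputs. The groups did not overlap (log2 0.76, SE 0.25, adjusted p = 0.0281). The fold rests in part on input replicate 1, without which the log2 fold change was 0.48 (adjusted p = 0.158), and the call was also lost without ACTB sgRNA replicate 1 (0.0736) or con replicates 1 (0.0538) and 2 (0.0555). Median-ratio factors (0.05004), the 10 CPM filter (0.0517) and thinning (0.455) lost it too, making 7 of 18 alternatives. DNAJC6, the auxilin that strips clathrin from vesicles in neurons, stood at a log2 of 0.80 (SE 0.34, adjusted p = 0.0948). DNAJC13, an endosome protein, had 77.9 to 122 CPM in the FHY1-M3 libraries, with a median of 105, and 133, 79.6 and 120 CPM in the inputs (log2 -0.10, interval -0.55 to 0.36). The broadly expressed clathrin uncoating gene GAK, a J-domain gene under another symbol, was higher by 0.69 (SE 0.21, adjusted p = 0.0155). SEC63 and HSCB, further J-domain genes under other symbols, were not called.

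The remaining members were in no role list. Of these 11 genes 10 were tested and 0 were called, with 2 at an unadjusted p under 0.05. Across all genes tested these shares were 20% and 31.9%, so counts this low among 10 genes say little. DNAJC18 had the largest of their estimates (log2 1.43, SE 0.55, adjusted p = 0.0607) on 20 input counts. DNAJC24, which acts in the modification of elongation factor 2, had 10.4 to 22.6 CPM in the FHY1-M3 libraries and 20.2, 32.5 and 47.1 CPM in the inputs (log2 -1.11, SE 0.48, adjusted p = 0.0973). DNAJC9, which works with histones, was at a log2 of -0.01 (SE 0.38, interval -0.79 to 0.76). The genes known chiefly from testis were near 0. DNAJB7 held 0 counts in every library, and DNAJC5B and DNAJC5G had 0 to 0.578 and 0 to 2.05 CPM across the FHY1-M3 libraries. DNAJB13 was tested on 4 input counts, with an interval of -5.10 to 1.86.

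Calls were set beside input depth. Across all genes tested 11.4% were called higher and 8.6% lower, but shares for all genes of like depth were not taken. The counts by depth therefore cannot be read as particular to the members. Of the 11 tested members with 100 or more counts over the 3 inputs, 5 were higher and 1 was lower, with a median SE of 0.20 and a median log2 fold change of 0.52. Of the 22 with under 50 input counts, 2 were higher, with a median SE of 0.58 and a median log2 fold change of 0.19. These medians are of signed values. The estimates under 50 input counts went both ways, from -1.62 (DNAJB13) to 1.53 (DNAJC11). The medians therefore do not show that changes were larger at greater depth, and the part of depth in the calls was not tested. Among the 30 members not called, the 95% interval lay within 2-fold in both directions for 11 and reached past 2-fold in at least 1 direction for 19.

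The HSP70 cycle genes around the members are given from lists chosen for their place in the pathway. Across all genes tested 11.4% were called higher and 8.6% lower. Among HSP70 genes 7 of 11 tested were higher and 0 lower. HSPA6, the strictly inducible HSP70, held 860, 943, 994, 1116, 1051 and 804 counts in the FHY1-M3 libraries and 0 in every input. HSPA1A and HSPA1B, near-identical inducible copies between which reads may be shared, were higher by 2.54 (SE 0.53, adjusted p = 0.000615) and 1.78 (SE 0.11, adjusted p = 2.45e-15), and the constitutive HSPA8 by 0.67 (SE 0.07, adjusted p = 5.54e-10). HSPA1A held only 2, 3 and 4 counts in the inputs, so its fold is poorly fixed, while HSPA1B held 74, 133 and 80. Among nucleotide exchange factors 7 of 13 were higher and 0 lower, with HSPH1 at 2.52 (SE 0.15, adjusted p = 6.2e-16) and BAG3 at 2.42 (SE 0.21, adjusted p = 1.63e-11). Among the genes that hand clients on to HSP90 or to ubiquitin 7 of 12 were higher, with HSP90AA1 at 1.62 (SE 0.07, adjusted p = 1.33e-21) and the ubiquitin ligase gene STUB1 at 1.14 (SE 0.32, adjusted p = 0.00967), and HSP90B1, the HSP90 of the endoplasmic reticulum, was lower at -0.37 (SE 0.10, adjusted p = 0.00527). The median log2 fold changes of these lists were 0.67, 0.70 and 0.59, against 0.04 over all genes. Their genes were seen to move in earlier results of the same libraries, so they are no independent evidence.

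The guides were then compared with each other in a fit of the 6 FHY1-M3 libraries, which asks whether directing the construct to ACTB changed any cochaperone gene. Of the 38 members tested, 0 were called higher and 0 lower in each of the 3 comparisons by the edgeR quasi-likelihood test. Setting the ACTB guide against the non-target guide called 0.25% of all 12808 genes, 0.0547% higher and 0.195% lower. Setting it against the con guide called 0.0312%, with 0.0156% higher and 0.0156% lower. The con guide set against the non-target guide called 0.172%, with 0.00781% higher and 0.164% lower. An unadjusted p under 0.05 was reached by 3 members in the first of these comparisons, where 7.82% of all genes reached it, by 2 in the second (3.86%) and by 0 in the third (5.25%). DESeq2 called DNAJA1 lower under the ACTB guide than under the non-target guide and called 0 members in the other comparisons. The comparisons share libraries, so their values are given side by side and are not independent.

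DNAJA1 came nearest to a difference between guides. It had 361 and 385 CPM in the ACTB libraries, 465 and 453 CPM in the con libraries, and 478 and 495 CPM in the non-target libraries. Both ACTB libraries were below the other 4. The log2 fold change of the ACTB over the non-target guide was -0.38 (SE 0.10, interval -0.59 to -0.17), with an adjusted p of 0.173 in edgeR's quasi-likelihood test and 0.00616 in DESeq2. Over the alternatives the log2 fold change ran from -0.43 to -0.33 and the adjusted p from 0.00616 to 1. ACTB over con gave -0.30 (SE 0.10, adjusted p = 1), and con over non-target gave -0.08 (SE 0.10, adjusted p = 0.988). DNAJB1 did not share this order, at 921 and 1004 CPM in the ACTB libraries, 881 and 887 CPM in the con libraries and 915 and 978 CPM in the non-target libraries. For DNAJB1 the ACTB over non-target log2 fold change was 0.03 (SE 0.07, interval -0.12 to 0.17).

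**Figure D3:**
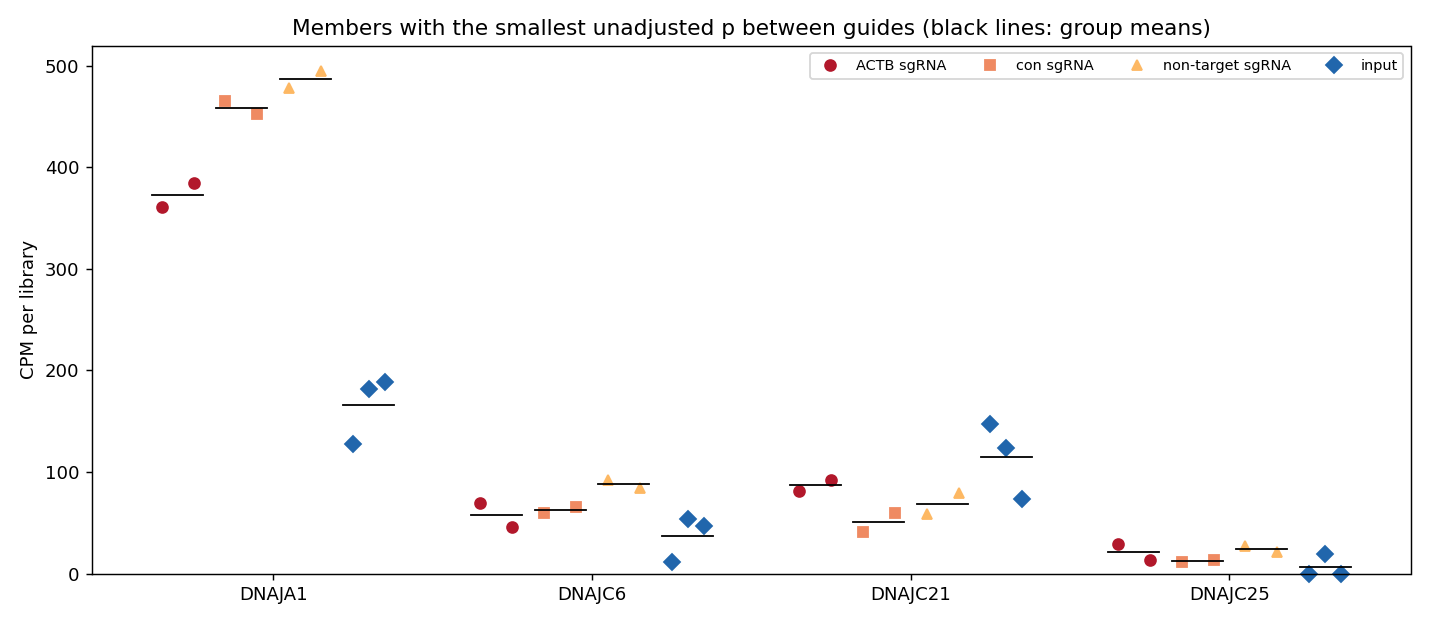
CPM per library of the members with the smallest unadjusted p between guides, with 2 points for each guide, 3 for input and black lines at group means. The ACTB sgRNA points of DNAJA1, at 361 and 385 CPM, lie below those of the other guides and above all inputs, and DNAJC25 is at 0 in 2 of 3 inputs.

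DNAJC21 had 81.5 and 92.5 CPM in the ACTB libraries, 41.1 and 59.8 CPM in the con libraries, and 58.6 and 79.3 CPM in the non-target libraries. Both ACTB libraries were above the other 4, but no comparison passed (ACTB over con, log2 0.79, SE 0.28, adjusted p = 1). DNAJC6 had 69.6 and 45.7 CPM in the ACTB libraries, 59.3 and 65.6 CPM in the con libraries, and 92.4 and 84.4 CPM in the non-target libraries (ACTB over non-target, log2 -0.61, SE 0.28, adjusted p = 0.584). Its highest values were thus under the non-target guide. DNAJC25 had 28.7 and 13.3 CPM in the ACTB libraries, 11.4 and 13.1 CPM in the con libraries, and 27.1 and 21.2 CPM in the non-target libraries (con over non-target, log2 -0.98, SE 0.52, adjusted p = 0.932). DNAJC30, a mitochondrial member named after its values were seen, had 18.8 and 14.5 CPM in the ACTB libraries, 13.3 and 11.5 CPM in the con libraries, and 9.67 and 2.73 CPM in the non-target libraries (ACTB over non-target, log2 1.40, SE 0.69, adjusted p = 0.633). Its values under the ACTB guide were above those under the other guides, at a low level.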

How the data were processed

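TRIzol extraction and a directional library kit were used, per the labels' protocols. The deposited table holds whole-number counts per gene symbol that show no sign of normalization. Per the submitters' processing notes, cutadapt 4.3, STAR 2.7.10b, deepTools and hg38 were used, in roles not stated. The sources used here do not name the counting tool, its strand setting or the annotation. Most counts were even (77.5% to 97.0% of nonzero member values per library), so both mates were probably counted, and low counts stand for fewer fragments.

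Tests were two-sided quasi-likelihood F tests of edgeR 4.0.16 (R 4.3.3) after filterByExpr by group and TMM scaling, with Benjamini-Hochberg adjustment over all genes tested and a threshold of 0.05. Comparisons with input used all 9 libraries (mean of the 3 guides minus input), and those between guides the 6 FHY1-M3 libraries. SE and 95% intervals were derived from F. CPM values are from the 9-library scaling throughout. Alternatives covered scaling, filters, DESeq2 1.42.0, halved counts, thinning, a replicate block, genes left out of the scaling, libraries in the fit and leaving out each library.

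Described individually were up to 12 called members per direction whose mean reached 10 CPM and whose groups did not overlap, the 6 uncalled members of highest level, and the 2 members of smallest p per guide comparison. DNAJB6 was added because it was called, and other members were named after their values were seen. Members, lists and rules were chosen with earlier results of these data known. Replicates differed by more than sampling noise (chi-square per degree of freedom of 1.81 to 5.12 on halved counts). Gene positions and sequences are from RefSeq (GRCh38.p14), in which all 45 members matched by symbol. All columns of the table were used.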

Additional observations from a re-analysis of the deposited data

Results flagged for a closer look

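Over the 6 FHY1-M3 libraries, 43 members with any count were checked for a library standing apart from the other 5 by its gap relative to the range, and 8 were found. Chance gives about 1 in 20 for evenly spread values, a rate that cannot be applied to genes with counts in few libraries, such as DNAJB8 and DNAJC5B, whose only nonzero library stands apart by construction. In non-target replicate 1, DNAJB8, a testis gene, stood at 6.99 CPM (26 counts) and at 0 in the other 5 and in every input. In the same library DNAJB12 stood at 104 CPM, DNAJC16 at 48.4 CPM and DNAJC15 at 2.15 CPM (8 counts), each the highest value. DNAJB4 stood at 36.2 CPM in non-target replicate 2. In ACTB sgRNA replicate 2, DNAJC9 stood at 59.6 CPM and DNAJC5B at 0.578 CPM, which is 2 counts. DNAJA4 stood at 12.1 CPM in con replicate 2, with 4.42 CPM as the next value. DNAJB8, DNAJC5B and DNAJC15 were too low to test against input, and the edgeR test called none of the other 5 in any comparison that tested them.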

How the results depend on the processing

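DNAJB1 and DNAJA1 kept their calls against input in all 18 alternatives (log2 at or above 2.50 and 1.24), and DNAJC11 and DNAJA3 in all but the thinned libraries (1 draw; adjusted p = 0.289 and 0.293). The number of members called higher, 8 as reported, was 10 with library-size scaling, 10 with no low-count filter, 5 with median-ratio factors, 5 when only genes averaging 10 CPM or more were tested, and 2 after thinning, and 5 to 7 as single libraries were left out (5 without con sgRNA replicate 2). The number called lower, 1 as reported, was 3 in DESeq2, 2 with a replicate block, 0 after thinning, and 0 to 2 without single libraries. It was 0 without ACTB sgRNA replicate 1, con sgRNA replicate 1, non-target sgRNA replicate 1 or input replicate 2, and 2 without input replicate 3. Between ACTB and non-target sgRNA 1 member was lower in DESeq2. The class A median was 0.73 after thinning and 0.69 to 1.36 without single libraries (1.36 without input replicate 2), and that of class C was -0.11 after thinning. The cause of these differences was not tested. Signs of uncalled members changed for DNAJA2 (-0.19), DNAJC10 (-0.13) and DNAJB12 (-0.56) after thinning, and as single libraries were left out for DNAJC10 (-0.13 to 0.37), DNAJC13 (-0.32 to 0.056), DNAJC2 (-0.23 to 0.14) and DNAJB12 (-0.18 to 0.72) against input, DNAJC25 (-0.86 to 0.25) for ACTB against non-target sgRNA and DNAJC6 (-0.45 to 0.16) for ACTB against con sgRNA. No pairing by replicate number was seen between guides, where the differences between replicates 1 and 2 correlated at -0.01 to 0.00. Low counts add noise to such differences, so a shared batch could be missed, and pairing with the inputs was not checked. With the replicate block 7 members were higher and 2 lower against input, and 0 were called between guides. DNAJC7 lost its call there (adjusted p = 0.153), and the class medians were 0.75 (A), 0.64 (B) and 0.19 (C). Thinning the FHY1-M3 libraries raised the SE of DNAJB1 to 0.197, against 0.123 as reported, so their depth bears on precision too.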
